A study of Mus musculus with 2 samples.

Results

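A set of 41 genes of DNA replication and mitosis were followed through the cell types of an injured mouse hindlimb, with and without irradiation of the wound. The members were a named list of 17 replication genes (Mcm2 to Mcm7, Pcna, Gins1, Gins2, Rrm1, Rrm2, Cdc6, Cdt1, Cdc45, Tyms, Ccne1 and Ccne2) and 24 mitosis genes (Mki67, Top2a, Ube2c, Birc5, Ccnb1, Ccnb2, Cdk1, Cdc20, Plk1, Aurka, Aurkb, Bub1, Bub1b, Cenpe, Cenpf, Cenpa, Kif11, Kif20a, Kif23, Tpx2, Nusap1, Hmmr, Ccna2 and Prc1). All 41 were found among the 32285 genes of the count tables. Single-cell RNA libraries (10x Genomics, read from the 3' end of each transcript) were prepared from the injured tendon site of C57BL/6J males aged 8 to 10 weeks, 7 days after a dorsal burn over 30% of the body surface and transection of the left Achilles tendon, an injury used to model trauma-induced heterotopic ossification. The control library held cells of injured animals without radiation. The other library held cells of injured animals exposed once to 7 Gy of X-rays through a 2 cm collimator, and is called irradiated here. The labels name radiation arms on day 1 and day 3 after injury with 10 mice each. The series text speaks of day 3 in words that can be read in more than 1 way, so which arm the library held, and the time from radiation to harvest, are uncertain for every irradiated value. Both groups carried the burn and the tenotomy, so no library of uninjured tissue enters any comparison. The number of animals behind a library is not given in the sources used here.

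A dividing cell first licenses its replication origins, when Cdc6 and Cdt1 load the Mcm2 to Mcm7 ring onto DNA. Cdc45 and the GINS complex then turn that ring into an active helicase, Pcna holds the polymerases on the strand, and ribonucleotide reductase (Rrm1, Rrm2) and thymidylate synthase (Tyms) supply nucleotides. These genes are largely switched on by E2F factors at the end of G1. The mitosis genes peak later, in G2 and M, and are largely switched on by the MuvB complex with B-Myb and FoxM1, which works through CHR elements and CCAAT boxes in their promoters. Replication transcripts can therefore be present without mitosis transcripts in a cell that has started or licensed replication but not reached G2.

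Each group had 1 library, so there is no replicate check, no test was possible between conditions, and irradiation cannot be told apart from any other difference between the libraries. Levels are counts of unique molecular identifiers (UMIs, each a captured transcript) scaled to the total UMIs of a class in a library and written CPM. Intervals are exact 95% intervals that cover counting error only, and those of summed UMIs are too narrow where a few cells carry many of the transcripts. The libraries held 11369 and 8302 barcodes with 180080740 and 111753092 UMIs (control and irradiated), and 8725 and 7034 cells remained after filtering. They shared 32 barcode sequences. Clusters were drawn without any cell cycle gene and named from marker lists, which gave mesenchymal-like (2329 control and 627 irradiated cells), keratinocyte-like (2088 and 1250), endothelial-like (510 and 309), macrophage-like (1945 and 2640), dendritic-like (285 and 257) and neutrophil-like classes (836 and 1246), besides smaller ones. Markers of the labelled tissue were present: the 7 tendon markers summed to 1927 and 3082 CPM in the mesenchymal-like class, with none at 0, while the keratinocyte-like cells held the 10 keratinocyte markers at 38728 and 31829 CPM.

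The promoters of the 2 gene groups carried different letters. Whether these letters bear on a gene's ratio was not tested. RefSeq promoter windows on GRCm38.p6, each running from 250 bases before to 50 bases after the start site, were matched for 13 of 17 replication and 20 of 24 mitosis genes. The CHR core TTTGAA, read on both strands, was in 15 of 20 mitosis windows (75%), in 2 of 13 replication windows (15.4%) and in 18.1% of all 27025 windows. CCAAT was in 18 of 20 mitosis windows (90.0%), 9 of 13 replication windows (69.2%) and 37.9% of all windows. E2F-type letters (TTTCCCGC, TTTGGCGC or TTTCGCGC, on either strand, which can overlap each other) were in 6 of 13 replication windows (46.2%), in 1 of 20 mitosis windows (5.0%), that of Cdk1, and in 1.91% of all windows. The stretches below are read 5′ to 3′ on the gene's strand, with the CCAAT box, the CHR core, the related TTTAAA, the E2F-type letters and their reverse complements in capitals. Mcm5 and Mcm6, subunits of the replicative helicase, show E2F-type letters (chr8:75109283-75109496, plus strand, and chr1:128359710-128359820, minus strand). Mki67, which coats mitotic chromosomes, Kif11, the spindle motor Eg5, and Ccnb2, a B-type cyclin, show CHR and CCAAT letters (chr7:135716467-135716572, minus strand; chr19:37376332-37376373, plus strand; chr9:70421566-70421726, minus strand). A match is a description of these letters and not a measured binding site.
Mcm5: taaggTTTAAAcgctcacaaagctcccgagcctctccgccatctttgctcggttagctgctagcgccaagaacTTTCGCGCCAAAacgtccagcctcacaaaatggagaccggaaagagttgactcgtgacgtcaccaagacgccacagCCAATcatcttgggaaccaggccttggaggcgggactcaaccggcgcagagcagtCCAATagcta
Mcm6: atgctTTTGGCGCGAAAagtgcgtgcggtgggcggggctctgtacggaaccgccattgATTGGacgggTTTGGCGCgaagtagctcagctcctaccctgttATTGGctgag
Mki67: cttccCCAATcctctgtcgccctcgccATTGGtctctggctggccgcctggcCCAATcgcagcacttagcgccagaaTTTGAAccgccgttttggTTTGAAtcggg
Kif11: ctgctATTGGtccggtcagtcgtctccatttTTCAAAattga
Ccnb2: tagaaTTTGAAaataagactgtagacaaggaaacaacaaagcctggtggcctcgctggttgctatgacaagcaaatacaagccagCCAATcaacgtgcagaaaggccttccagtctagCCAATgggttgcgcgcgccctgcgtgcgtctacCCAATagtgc

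Summed mitosis transcripts were lower in the irradiated library in each of the 10 classes shown in the plot of summed levels, while summed replication transcripts were lower in 7 of them and higher in 3, though not all of these differences exceeded counting error. Of the cells outside the plot, sebocyte-like cells (39 and 18) also had the lower mitosis sum in the irradiated library. Melanocyte-like cells (12 and 10, with 431 and 727 CPM) and the cells left unnamed (145 and 187, with 579 and 806 CPM) had the higher. The unnamed cells pooled unlike clusters. Cluster 23, led by Gzma, went from 531 to 1510 CPM, while cluster 27 (Fabp4 and Rgs5 leading) went from 591 to 50.5 CPM. Clusters 35 (255 and 122 CPM) and 36 (985 and 657 CPM), on few cells, were also lower. In the control library the keratinocyte-like class held 1533 CPM of mitosis transcripts, the mesenchymal-like class 758 CPM, the endothelial-like class 763 CPM, the macrophage-like class 288 CPM and the neutrophil-like class 181 CPM. In the irradiated library these classes held 1112, 521, 670, 144 and 59.8 CPM, in the same order of classes. The summed log2 ratio (irradiated over control) of mitosis genes was -0.46 (-0.48 to -0.45) in keratinocyte-like, -0.54 (-0.57 to -0.51) in mesenchymal-like, -0.19 (-0.25 to -0.13) in endothelial-like, -1.0 (-1.06 to -0.94) in macrophage-like and -1.60 (-1.81 to -1.39) in neutrophil-like cells. Replication transcripts went from 593 to 509 CPM in keratinocyte-like (-0.22), from 376 to 278 CPM in mesenchymal-like (-0.44), from 423 to 439 CPM in endothelial-like (0.054, with an interval of -0.021 to 0.13), from 298 to 256 CPM in macrophage-like (-0.22) and from 125 to 89.05 CPM in neutrophil-like cells (-0.49). The median log2 ratio of all measured genes lay between -0.04 and 0.01 in the mesenchymal-, keratinocyte- and endothelial-like classes. It was -0.12 in macrophage-like and -0.38 in neutrophil-like cells, so there a part of each member's ratio is shared by the typical gene.

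**Figure D1:**
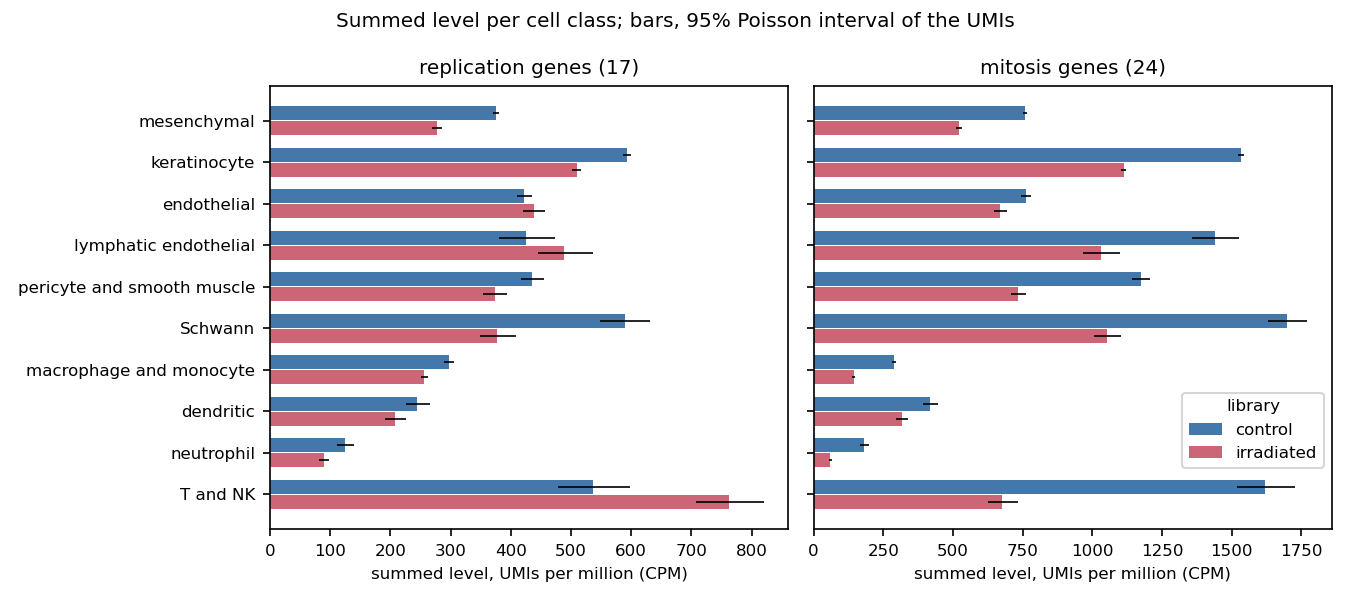
Horizontal bars give the summed level (CPM) of the 17 replication genes (left) and the 24 mitosis genes (right) in 10 cell classes of the control and the irradiated library, with 95% Poisson intervals. The irradiated mitosis bar is the shorter in all 10 classes, from 1533 against 1112 CPM in keratinocyte-like cells to 181 against 59.8 CPM in neutrophil-like cells, while the replication bars of the endothelial-like, lymphatic endothelial-like and T and NK-like classes are longer in the irradiated library.

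Mitosis transcripts had the lower irradiated-to-control ratio of the 2 groups in each of these 10 classes, by an amount that varied widely. The log2 ratio of replication genes minus that of mitosis genes was 0.10 (0.05 to 0.16) in mesenchymal-like, 0.24 (0.21 to 0.28) in keratinocyte-like, 0.24 (0.15 to 0.34) in endothelial-like and 0.78 (0.70 to 0.87) in macrophage-like cells. It was 0.46 (0.33 to 0.58) in pericyte and smooth muscle-like cells and 1.77 (1.52 to 2.01) in T and NK-like cells. It was -0.96 in melanocyte-like cells and -0.39 in the unnamed cells, a pool of unlike clusters. In Schwann-like (0.05, -0.13 to 0.23) and dendritic-like cells (0.17, -0.05 to 0.39) the interval held 0. Put as a ratio of UMIs, macrophage-like cells had 1.03 replication UMIs per mitosis UMI in control and 1.78 in irradiated tissue, whereas mesenchymal-like cells had 0.50 and 0.53. The mesenchymal difference was not stable: it was 0.011 without the most abundant member of each group and 0.014 with clusters weighted alike, but 0.38 when every cell was thinned to 2000 UMIs. Nor was the endothelial difference, which was 0.046 with clusters weighted alike and 1.01 with every cell thinned to 2000 UMIs.

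In mesenchymal-like cells, the fibroblast-like population that forms ectopic cartilage and bone in this injury, all 17 replication and all 24 mitosis genes had a negative log2 ratio. A gene was called when its ratio was 1.5-fold or more, its interval did not reach equality and it had 20 or more UMIs over both libraries. Called lower were 5 of 17 replication and 9 of 24 mitosis genes, and none was called higher. By the same rule 7.18% of all measured genes were lower and 11.6% higher in this class. The members' median log2 ratios were -0.46 for replication and -0.49 for mitosis genes, against -0.04 for all genes.

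Among the replication genes of mesenchymal-like cells, 3 of the 6 Mcm helicase subunits were called lower. Mcm3 (ENSMUSG00000041859, GENCODE M21 on GRCm38, chr1:20802968-20820312) was at 19.9 CPM in control and at 9.91 CPM in irradiated cells (log2 ratio -1.01, -1.25 to -0.77). Mcm2 (ENSMUSG00000002870, chr6:88883474-88898780) went from 15.8 to 8.28 CPM (-0.93) and Mcm5 from 12.1 to 6.77 CPM (-0.84). The other Mcm genes, Mcm4 (-0.44), Mcm6 (-0.39) and Mcm7 (-0.54), stayed inside 1.5-fold. The GINS subunits Gins2 (18.9 to 11.8 CPM, -0.68) and Gins1 (3.47 to 2.18 CPM, -0.67) completed the calls. The licensing factors were nearer to equality, with Cdc6 at 4.51 and 3.56 CPM (-0.34, with an interval of -0.77 to 0.07) and Cdt1 at -0.26. So were Pcna, the sliding clamp, at 78.3 and 68.6 CPM (-0.19), and Rrm2, the cell-cycle-regulated subunit of ribonucleotide reductase, at 33.6 and 26.8 CPM (-0.33). The E-type cyclins, which drive entry into S phase, stood at 11.2 and 7.73 CPM (Ccne1, -0.53) and at 8.39 and 6.83 CPM (Ccne2, -0.30). Any Mcm2 UMI was found in 23.0% of control and 12.3% of irradiated cells, and any Pcna UMI in 67.0% and 61.6%, without thinning.

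Among the mitosis genes of mesenchymal-like cells, the ratios ran from -0.97 to -0.20. Kif11 went from 23.5 to 12 CPM (-0.97, -1.19 to -0.75), Mki67 (ENSMUSG00000031004, chr7:135689784-135716361) from 41 to 23.6 CPM (-0.80) and Ccnb2 from 30.5 to 18.1 CPM (-0.75). Top2a (ENSMUSG00000020914, chr11:98992943-99024189), the topoisomerase that untangles sister chromatids, stood at 75.2 and 45.5 CPM (-0.72). The other 5 called lower were the checkpoint kinases Bub1 (-0.70) and Bub1b (-0.68), the mitotic kinase Cdk1 (60.8 to 38.2 CPM, -0.67), survivin (Birc5, 70.6 to 45.1 CPM, -0.65) and the centromeric histone Cenpa (-0.61). Not called were Ube2c, the ubiquitin-conjugating enzyme of the anaphase-promoting complex (72.3 and 52.5 CPM, -0.46), its activator Cdc20 (26.4 and 20.8 CPM, -0.35) and cyclin B1 (Ccnb1, 18.8 and 15.5 CPM, -0.27). The ratios nearest to equality were those of Cenpf (-0.20), Hmmr (-0.24) and Nusap1 (-0.24). Any Mki67 UMI was found in 21% of control and 10% of irradiated cells. Beside these values, the 10 macrophage markers summed to 104 and 246 CPM in this class (10 of 10 higher, none at 0) and the 10 keratinocyte markers to 528 and 347 CPM (0 of 10 higher); their part in the result was not tested.

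**Figure D2:**
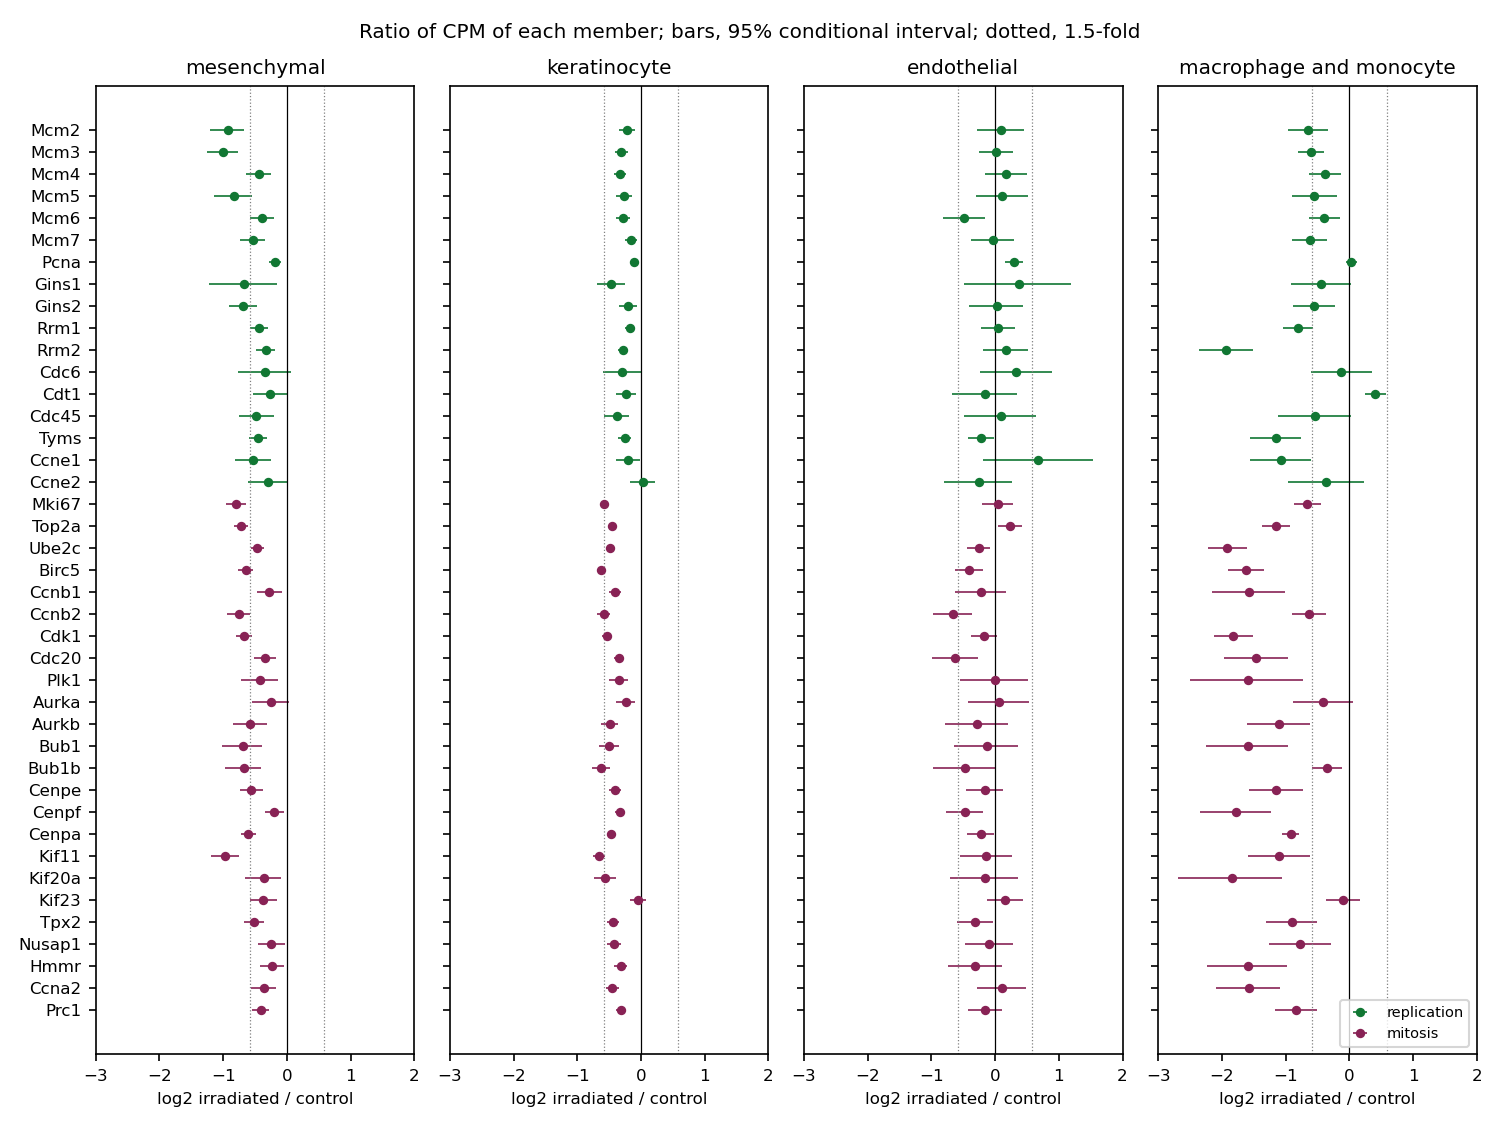
Points give the log2 ratio (irradiated over control) of each member's CPM in 4 cell classes, with 95% conditional intervals, green for replication and purple for mitosis genes; dotted lines mark 1.5-fold. Nearly all points lie left of 0 in the mesenchymal-like and keratinocyte-like panels, the endothelial-like points straddle 0, and in the macrophage-like panel 21 of 24 mitosis genes lie past 1.5-fold while Pcna and Cdt1 lie at 0.03 and 0.41.

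In keratinocyte-like cells the summed mitosis ratio was -0.46 and the summed replication ratio -0.22. All 24 mitosis and 16 of 17 replication genes had a negative log2 ratio, but 4 mitosis genes and no replication gene were called lower and none higher, where 8.24% of all genes were lower and 6.91% higher. The 4 were Kif11 (54.1 to 34.3 CPM, -0.66), Bub1b (25.1 to 16.2 CPM, -0.63), Birc5 (123 to 79.7 CPM, -0.62) and Ccnb2 (45.8 to 30.5 CPM, -0.59). Mki67 stood at 118 and 79.3 CPM (-0.57), just inside 1.5-fold, and Top2a at 176 and 128 CPM (-0.46). Also inside were Ube2c (180 and 128 CPM, -0.49), Cdk1 (82.7 and 57 CPM, -0.54), Ccnb1 (50.2 and 37.7 CPM, -0.41) and Cdc20 (70.2 and 55.3 CPM, -0.34). Kif23, a motor of the central spindle and midbody, was nearest to equality (23.9 and 23.1 CPM, -0.05), before Aurka (-0.24) and Prc1 (-0.32).

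The replication genes of keratinocyte-like cells lay between -0.47 and 0.03. Gins1 (9.23 and 6.68 CPM, -0.47), Cdc45 (-0.38) and Mcm4 (-0.33) had the lowest ratios. Ccne2 (10.0 and 10.2 CPM, 0.03), Pcna (111 and 103 CPM, -0.10) and Mcm7 (-0.15) had the highest. Mcm2 (25.7 and 22.0 CPM, -0.22), Mcm5 (28.8 and 23.9 CPM, -0.27), Rrm2 (75.5 and 62.0 CPM, -0.29), Cdc6 (4.67 and 3.80 CPM, -0.30) and Ccne1 (11.7 and 10.2 CPM, -0.20) lay within that range. The 6 Mcm genes spanned -0.33 to -0.15. The 10 mesenchymal markers moved beside these values, from 1176 to 428 CPM (1 of 10 higher, none at 0), and their part in the result was not tested.

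In endothelial-like cells 12 of 17 replication genes had a positive and 19 of 24 mitosis genes a negative log2 ratio. No replication gene was called in either direction, and 2 mitosis genes were called lower, where 4.15% of all genes were lower and 8.36% higher. The 2 were Ccnb2 (38.0 to 24.0 CPM, -0.67) and Cdc20 (26.1 to 16.9 CPM, -0.62), with Cenpf next (36.4 and 26.1 CPM, -0.48). Top2a (60.6 and 71.3 CPM, 0.23), Kif23 (28.6 and 31.9 CPM, 0.16) and Ccna2 (0.11) had the highest mitosis ratios, and Mki67 stood at 41.5 and 42.8 CPM. Cdk1 (63.4 and 56.3 CPM), Ccnb1 (17.3 and 14.8 CPM), Ube2c (86.9 and 72.8 CPM) and Birc5 (64.8 and 48.9 CPM) lay between them. Pcna stood at 105 and 129 CPM (0.30, 0.15 to 0.44), the only replication gene of the class whose interval left out equality on the higher side. Ccne1 (2.80 and 4.48 CPM, 0.68, on 27 and 23 UMIs), Gins1 (3.31 and 4.28 CPM, 0.37) and Cdc6 (7.15 and 8.96 CPM, 0.33) had higher ratios with wide intervals that held 0. Mcm6 (29.9 and 21.4 CPM, -0.48), Ccne2 (10.3 and 8.57 CPM, -0.26) and Tyms (-0.22) had the lowest. Mcm2 (17.4 and 18.5 CPM), Mcm5 (14.6 and 15.8 CPM) and Rrm2 (18.2 and 20.4 CPM) were within their counting error of equality.

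The endothelial sum depended on how cells were weighted. Irradiated cells with at least 2 mitosis UMIs after thinning were few (21 of 300) and large, with a median of 39779 UMIs before thinning against 27239 in the control. With every cell thinned to 2000 UMIs the mitosis ratio was -0.81 and the replication ratio 0.20. Beside this, the neutrophil markers of the class summed to 78.3 and 370 CPM (7 of 8 higher) and the mesenchymal markers to 1197 and 648 CPM (1 of 10 higher), and their part was not tested. Without cluster 26 (Fabp4, Flt1 and Aqp1 leading), which held 5.49% of control and 31.1% of irradiated endothelial-like cells, the mitosis ratio was 0.076 and the replication ratio 0.18.

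In macrophage-like cells 24 of 24 mitosis and 15 of 17 replication genes had a negative log2 ratio. Called lower were 21 of 24 mitosis genes and 7 of 17 replication genes, and none higher, where 12.4% of all genes were lower and 6.49% higher. Ube2c went from 18.4 to 4.88 CPM (-1.91, -2.22 to -1.61), Kif20a, a motor of cytokinesis, from 2.72 to 0.757 CPM (-1.85) and Cdk1 from 17.4 to 4.92 CPM (-1.82). Birc5 (18.7 and 6.09 CPM, -1.62), Ccnb1 (4.60 and 1.55 CPM, -1.57), Cdc20 (5.63 and 2.04 CPM, -1.46), Top2a (24.4 and 11.0 CPM, -1.15) and Mki67 (23.1 and 14.6 CPM, -0.66) were also called lower. The 3 not called were Kif23 (11.5 and 10.8 CPM, -0.10), Bub1b (16.7 and 13.1 CPM, -0.35) and Aurka (-0.41).

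The replication genes of macrophage-like cells spanned -1.93 to 0.41. Lowest in ratio was Rrm2 at 9.81 and 2.57 CPM (-1.93, -2.36 to -1.51). Tyms stood at 7.81 and 3.52 CPM (-1.15) and Rrm1 at 19.1 and 10.9 CPM (-0.81), so the 3 genes of nucleotide supply were among the 7 called. Ccne1 (5.33 and 2.54 CPM, -1.07), Mcm2 (10.2 and 6.51 CPM, -0.64), Mcm7 (-0.62) and Mcm3 (-0.59) were the other 4 called. Pcna was level at 121 and 124 CPM (0.03), and Cdt1 stood at 28.2 and 37.4 CPM (0.41, 0.25 to 0.57, inside 1.5-fold). Mcm5 (7.69 and 5.26 CPM, -0.55), Ccne2 (2.79 and 2.16 CPM, -0.37) and Cdc6 (3.88 and 3.56 CPM, -0.12) were not called. Without Pcna, the most abundant member, the log2 ratio of the replication sum was -0.42 in place of -0.22.

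Markers of other cell types moved with these macrophage values. The 10 mesenchymal markers summed to 544 CPM in control and 130 CPM in irradiated macrophage-like cells, with 0 of 10 higher in the irradiated library and none at 0. The 10 keratinocyte markers summed to 528 and 144 CPM, again with 0 of 10 higher. Red cell markers moved the other way, from 117 to 529 CPM. Neutrophil-like cells, which are not expected to divide, had mesenchymal markers at 804 and 158 CPM beside mitosis transcripts at 181 and 59.8 CPM. When the mitosis and replication UMIs per neutrophil-like cell of the same library were subtracted from each macrophage-like cell, the mitosis ratio was -0.94 and the replication ratio -0.23. Neutrophil-like cells were shallower (medians of 2107.5 and 3109.5 UMIs) than macrophage-like cells (7673 and 9692 UMIs). The subtraction therefore need not take off all transcripts of other cell types, and the part of these markers in the class's values was not tested.

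Fewer members could be measured in dendritic-like and neutrophil-like cells. In dendritic-like cells 3 of the 13 replication genes with at least 20 UMIs and 4 of 16 mitosis genes were called lower, none higher, where 5.96% of all genes were lower and 6.56% higher; Cdk1 went from 17.3 to 5.01 CPM (-1.79), Ube2c from 33.8 to 18.9 CPM and Top2a from 36.2 to 22.3 CPM. In neutrophil-like cells only 5 replication and 10 mitosis genes passed 20 UMIs, of which 3 and 8 were called lower and none higher, where 28.1% of all genes were lower and 4.9% higher. Pericyte and smooth muscle-like cells went from 1175 to 734 CPM of mitosis transcripts (-0.68) and from 436 to 374 CPM of replication transcripts (-0.22). Their Birc5 went from 77.6 to 32.3 CPM and their Ccnb1 from 31.1 to 14.1 CPM, whereas Mki67 stood at 82.6 and 72.0 CPM. Schwann-like cells went from 1701 to 1054 CPM of mitosis (-0.69) and from 589 to 378 CPM of replication transcripts (-0.64).

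T and NK-like cells (102 control and 135 irradiated) had opposite signs for the 2 groups in summed UMIs. Mitosis transcripts went from 1621 to 677 CPM (-1.26, -1.41 to -1.11) and replication transcripts from 536 to 762 CPM (0.51, 0.31 to 0.70). Cdc20 went from 84.8 to 3.21 CPM (50 and 3 UMIs) and Ccnb1 from 39.0 to 4.28 CPM (23 and 4 UMIs), while Mcm5 went from 17.0 to 44.9 CPM (10 and 42 UMIs) and Ccne2 from 6.78 to 26.8 CPM (4 and 25 UMIs). The shares of positive cells had overlapping intervals: 19 of 88 thinned control cells (21.6%) and 21 of 127 irradiated cells (16.5%) had at least 2 mitosis UMIs, and 20.5% had at least 2 replication UMIs in both libraries. A cluster left unnamed, led by Gzma (44 control and 122 irradiated cells), had mitosis transcripts at 531 and 1510 CPM.

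Counted by cells, the share carrying mitosis transcripts was lower in the irradiated library in the 4 main classes (mesenchymal-, keratinocyte-, endothelial- and macrophage-like). After each cell was thinned to 2000 UMIs, a cell with at least 2 UMIs of a group was called positive. Mitosis-positive cells were 369 of 2280 (16.2%, 14.7 to 17.8) in control and 46 of 610 (7.54%, 5.57 to 9.93) in irradiated mesenchymal-like cells, a log2 ratio of shares of -1.10 (-1.58 to -0.66). They were 27.6% (25.7 to 29.6) and 17.4% (15.3 to 19.7) of keratinocyte-like, 13.7% (10.8 to 17.0) and 7.00% (4.39 to 10.5) of endothelial-like, and 5.99% (4.95 to 7.18) and 3.00% (2.37 to 3.75) of macrophage-like cells. None of these 4 pairs of intervals overlapped. In pericyte and smooth muscle-like cells the shares were 17.3% and 7.34%, and in Schwann-like cells 18.6% and 7.44%. Neutrophil-like cells, taken as a class that should lack these transcripts, gave 3.45% and 0.65%. Before thinning, the median depth was 25652 and 23034 UMIs in mesenchymal-like cells, and the unthinned mitosis-positive shares there were 55.8% and 34.1%. Cenpa alone had a UMI in 30.9% and 22.0% of macrophage-like and in 52.3% and 53.3% of dendritic-like cells, without thinning. Counted without Cenpa, mitosis-positive macrophage-like cells after thinning were 64 and 41 in place of 110 and 75. Dendritic-like cells gave 10 and 6 in place of 30 and 13. Many positive cells of both classes thus passed the threshold only through Cenpa.

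Cells positive for replication transcripts made up 14.2% (12.8 to 15.7) of control and 8.69% (6.58 to 11.2) of irradiated mesenchymal-like cells, and 23.3% (21.5 to 25.2) and 18.3% (16.2 to 20.6) of keratinocyte-like cells. In endothelial-like cells it was 13.3% (10.4 to 16.6) and 16.7% (12.6 to 21.4), and in macrophage-like cells 9.69% (8.38 to 11.1) and 9.60% (8.48 to 10.8), with overlapping intervals. Pcna alone had a UMI in 52.1% and 62.1% of macrophage-like cells without thinning, and Cdt1 in 18.7% and 26.9%. The next replication gene there was Mcm3 (13.7% and 11.5%). In endothelial-like cells Pcna had a UMI in 65.7% and 62.5%. How many cells passed the threshold mainly through Pcna or Cdt1 was not counted. Neutrophil-like cells gave 3.23% and 2.13%. Without thinning the keratinocyte-like shares turned to 78.1% and 81.6%, the irradiated cells being deeper there (medians of 25654 against 21053 UMIs).

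**Figure D3:**
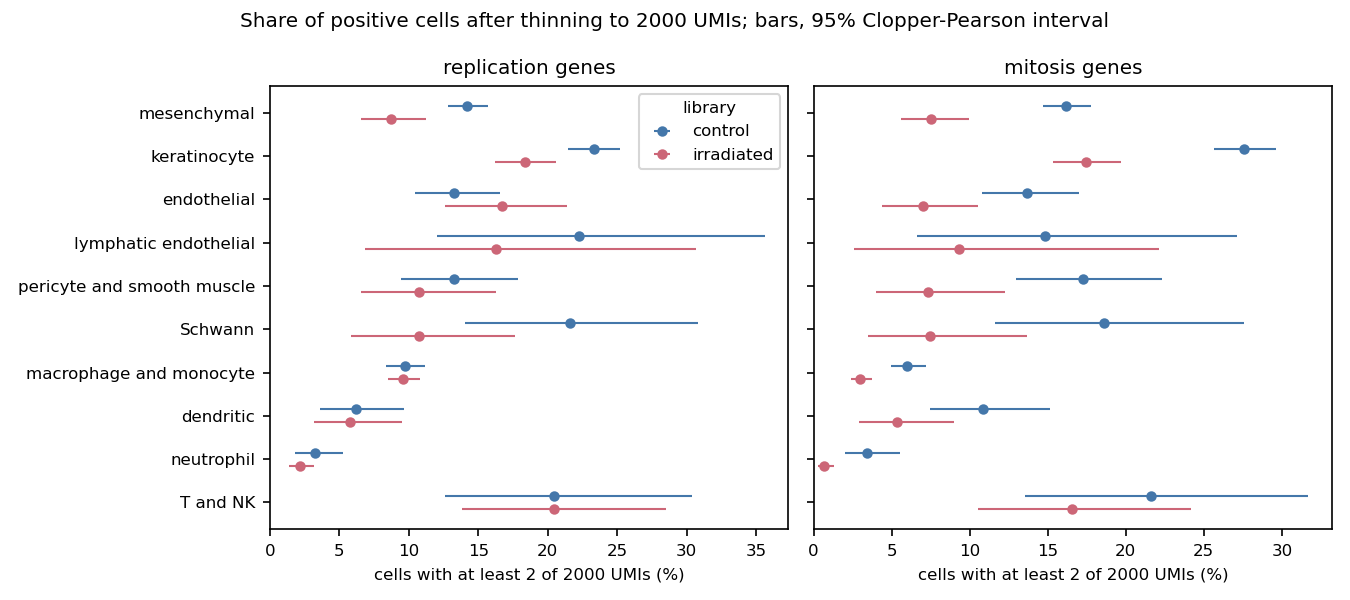
Points give the percentage of cells with at least 2 UMIs of the group among 2000 UMIs in 10 cell classes, with 95% Clopper-Pearson intervals, for replication genes (left) and mitosis genes (right). The irradiated mitosis points lie below the control points in all 10 classes (16.2% against 7.54% in mesenchymal-like cells), while the replication points of endothelial-like and macrophage-like cells have overlapping intervals. Many mitosis-positive macrophage-like and dendritic-like cells pass the threshold only through Cenpa. How many replication-positive cells pass it mainly through Pcna or Cdt1 was not counted.

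Replication transcripts were also read in cells grouped by their mitosis transcripts. In mesenchymal-like cells with at least 2 mitosis UMIs there were 1.70 (1.57 to 1.84) replication UMIs per control cell and 1.72 (1.36 to 2.14) per irradiated cell, among 2000 UMIs each. In those with 0 mitosis UMIs there were 0.40 (0.37 to 0.43) and 0.31 (0.27 to 0.36). Keratinocyte-like cells gave 2.19 and 2.15 in mitosis-positive cells, and 0.51 and 0.47 in those with 0. In the mitosis-negative group endothelial-like cells differed in the opposite direction from mesenchymal-like cells. They held 0.44 (0.37 to 0.52) replication UMIs per control cell and 0.65 (0.55 to 0.76) per irradiated cell. In macrophage-like cells the values were 1.20 and 0.96 in mitosis-positive and 0.46 and 0.48 in mitosis-negative cells, and in neutrophil-like cells 0.25 and 0.14 against 0.24 and 0.18. The libraries differed in the mitosis-positive cells of smaller classes, in opposite directions. Pericyte and smooth muscle-like cells held 1.79 (1.43 to 2.21) replication UMIs per control cell (47 cells) and 3.23 (2.33 to 4.37) per irradiated cell (13 cells), and Schwann-like cells 2.53 (1.86 to 3.35) and 0.89 (0.38 to 1.75), on 19 and 9 cells.

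Read the other way, replication-positive cells carried fewer mitosis transcripts in the irradiated library in 3 of these 4 classes. In endothelial-like cells with at least 2 replication UMIs there were 3.11 (2.70 to 3.56) mitosis UMIs per control cell and 1.54 (1.22 to 1.92) per irradiated cell. In macrophage-like cells they were 1.28 (1.12 to 1.45) and 0.54 (0.45 to 0.64), and in keratinocyte-like cells 4.51 (4.33 to 4.71) and 3.80 (3.55 to 4.06). In mesenchymal-like cells they were level at 3.24 (3.05 to 3.44) and 3.3 (2.83 to 3.83). The part of Pcna and Cdt1 in making cells replication-positive was not tested. Cells with replication transcripts but without mitosis transcripts (at least 2 UMIs of the former, under 2 of the latter) made up 8.45% (6.16 to 11.3) of control and 13.7% (9.99 to 18.1) of irradiated endothelial-like cells. The same cells were 6.84% and 5.25% of mesenchymal-like cells, while those with both were 7.37% and 3.44%. Among the mesenchymal-like cells at the high end, 3.33% of control and 1.64% of irradiated cells had 10 or more mitosis UMIs, and the highest cells held 29 and 24.

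**Figure D4:**
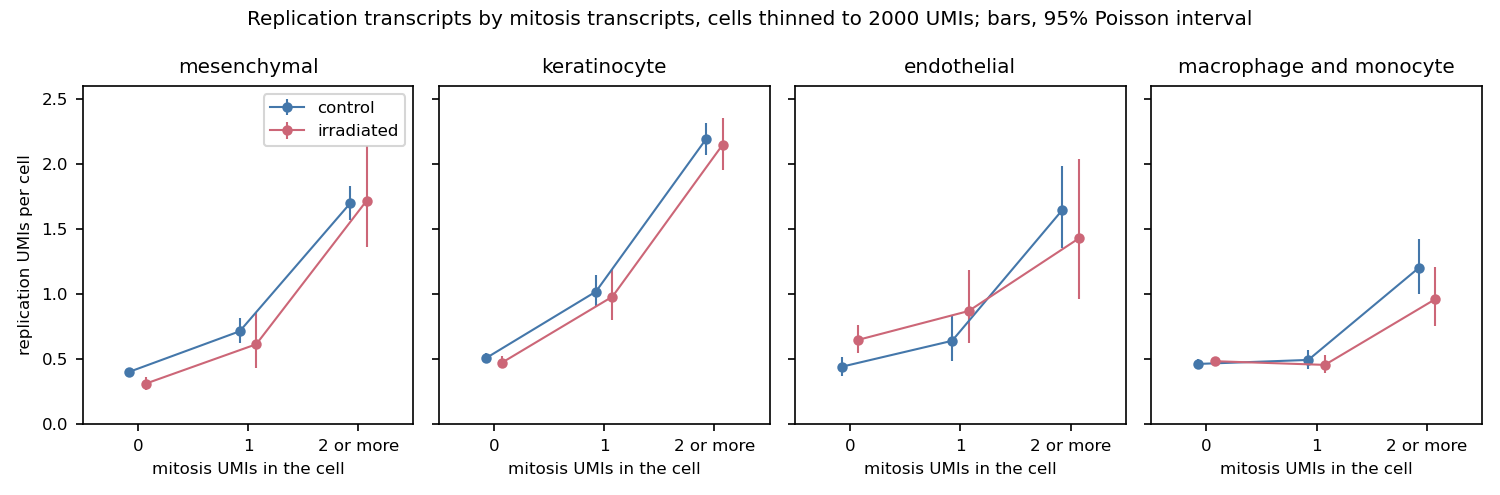
Points give replication UMIs per cell, in cells thinned to 2000 UMIs, for cells with 0, 1 or at least 2 mitosis UMIs in 4 classes of both libraries, with 95% Poisson intervals. The curves of the 2 libraries meet at 1.70 and 1.72 in mitosis-positive mesenchymal-like cells, and the irradiated endothelial-like curve starts higher, at 0.65 against 0.44.

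Within mitosis-positive mesenchymal-like cells, Mki67, Top2a and Ube2c had intervals that held equality. Each gene was read in the cells with at least 2 UMIs of the other mitosis genes (354 to 360 control and 45 or 46 irradiated cells). Mki67 stood at 353 and 378 UMIs per 1000 cells (log2 ratio 0.10, -0.73 to 0.83). Top2a stood at 596 and 652 (0.13, -0.47 to 0.69), and Ube2c at 596 and 622 (0.06, -0.56 to 0.63). Over the whole class, as CPM without thinning, the log2 ratios of these genes were -0.80, -0.72 and -0.46, and the Ube2c interval above also held its class value. No interval of the 41 members left out equality in mesenchymal-like or endothelial-like cells when read in mitosis-positive cells. These readings rested on at most 46 and 21 irradiated cells, and many intervals were wide, so they do not show equal levels. Mcm5 had 31 UMIs in control and 0 in irradiated mesenchymal-like cells, with an upper bound of 0.02. In keratinocyte-like cells 3 of 41 did: Top2a at 903 and 717 UMIs per 1000 cells (-0.33, -0.61 to -0.06), Plk1 at 119 and 56.1 (-1.09, -2.11 to -0.19) and, in the other direction, Kif23 at 126 and 220 (0.80, 0.23 to 1.35), while Mki67 stood at 590 and 593. In macrophage-like cells 2 of 41 did, Cdk1 (-1.67, -3.70 to -0.07, on 18 and 4 UMIs) and Mcm7 (-2.25, -5.44 to -0.13, on 14 and 2 UMIs). These 5 genes were chosen after their values were seen, from 41 intervals per class that were not adjusted for their number.

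Within classes, clusters differed widely in the members' level. Among the 21 clusters of the 4 main classes that held 20 or more control and 20 or more irradiated cells, mitosis transcripts were lower in the irradiated library in 15, all with an interval that left out equality, and higher with such an interval in 3. Replication transcripts were lower in 14 and higher with such an interval in 2. The highest levels in both libraries were in keratinocyte-like cluster 18 (Krt14, Krt5 and Krt6a leading), with mitosis transcripts at 2699 and 2886 CPM and replication transcripts at 1098 and 1154 CPM. Basal-marked cluster 10 (Krt5, Krt14, Col17a1) stood at 2046 and 1064 CPM of mitosis transcripts (-0.94) but at 527 and 479 CPM of replication transcripts (-0.14). Cluster 16 (Krt15, Cxcl14) went from 1442 to 975 CPM of mitosis and from 766 to 527 CPM of replication transcripts (-0.56 and -0.54). In cluster 25, led by Lor (loricrin, of the cornified envelope), mitosis transcripts were at 226 and 19.5 CPM, on 745 and 37 UMIs.

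The make-up of the mesenchymal-like class differed between the libraries beside its mitosis level. Of the mesenchymal-like cells, cluster 7 (Cxcl5, Col1a1) took 26.7% among control and 10.7% among irradiated cells and stood at 1263 and 1049 CPM of mitosis transcripts (-0.27). Cluster 5 (Col3a1, Dcn) held 19.9% and 51.5% and stood at 348 and 243 CPM (-0.52). Cluster 4 (Col1a1, Col11a1) held 35.2% and 9.73% and stood at 532 and 604 CPM (0.19). Cluster 17 (Thbs4, Col1a1) held 15.4% and 17.4% and stood at 643 and 573 CPM (-0.17), and cluster 30 (Dcn, Crabp1), on 38 and 36 cells, at 1760 and 436 CPM. With the clusters weighted alike the mesenchymal ratios were -0.30 for mitosis and -0.28 for replication genes, and without cluster 7 they were -0.37 and -0.31.

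Macrophage-like cells also came from different clusters in the 2 libraries. Clusters 0 and 1 (led by Cd74 and by Ccl8) held 36.5% and 37.8% of control but 23.0% and 14.1% of irradiated cells, and their mitosis transcripts went from 351 to 205 CPM (-0.78) and from 309 to 125 CPM (-1.30). Clusters 2 and 8 held 32.6% and 19.9% of irradiated but 5.19% and 6.99% of control cells, with mitosis transcripts at 151 and 165 CPM (0.13, -0.15 to 0.42) and at 85.8 and 65.4 CPM (-0.39). Cluster 11 (Lyz2, Ly6c2) went from 198 to 130 CPM. The replication log2 ratios of clusters 0, 1, 2 and 8 were between -0.30 and 0.02. The log2 ratio of mitosis genes was -0.58, and that of replication genes -0.0059, when clusters were drawn with cycle genes among the variable genes.

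**Figure D5:**
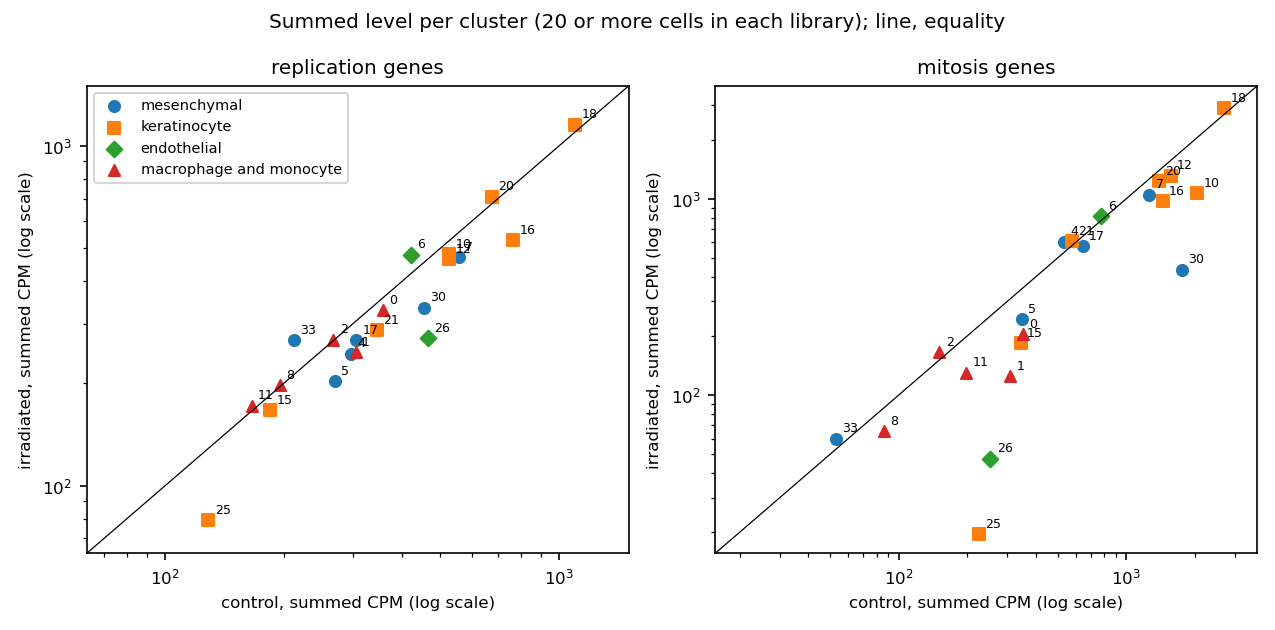
Each point is 1 cluster of the 4 main classes, with its summed level in the control library on the x axis and in the irradiated library on the y axis (CPM, both log scales; the line is equality; numbers are cluster numbers). Most mitosis points lie below the line, as cluster 10 at 2046 and 1064 CPM, with cluster 18 near it at 2699 and 2886 CPM, while most replication points lie closer to the line.

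Lists of further replication and mitosis genes were read in the same classes. In mesenchymal-like cells, where 7.18% of all genes were lower and 11.6% higher, of 49 other replication genes, 23 were called lower and none higher, with a median log2 ratio of -0.58. The lowest were Gmnn, the inhibitor of Cdt1 (21.2 and 9.67 CPM, -1.13), Cdca7 (-1.12) and Recql4 (-1.04, with an interval that held 0). The highest were the replication protein A subunit Rpa3 (38.3 and 38.5 CPM) and the polymerase subunits Pola2 (-0.19) and Pold2 (-0.20). Of 58 other mitosis genes, 30 were called lower and 1 higher, with a median of -0.59. The condensin subunit Ncaph (7.81 and 2.90 CPM, -1.43), the motor Kif15 (16.5 and 6.16 CPM, -1.42) and the cohesin acetyltransferase Esco2 (-1.41) were lowest, each lower than any member. Gtse1, a p53-binding protein of G2 and S phase, was the 1 called higher (2.94 and 4.95 CPM, 0.75), followed by securin (Pttg1, 26.9 and 36.4 CPM, 0.44) and Ckap2 (0.22).

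In keratinocyte-like cells, where 8.24% of all genes were lower and 6.91% higher, 2 of 49 other replication and 14 of 58 other mitosis genes were called lower (medians of -0.25 and -0.43) and none higher. The count of replication genes is below the share of all genes. In endothelial-like cells, where 4.15% of all genes were lower and 8.36% higher, 1 of 48 measured replication genes was lower and 2 were higher, the replisome factor Timeless (20 and 35.6 CPM, 0.83) and the clamp loader subunit Rfc5 (6.94 and 10.7 CPM, 0.63), and 1 of 58 mitosis genes was lower and 1 higher (Gtse1, 3.83 and 10.7 CPM, 1.48), so that neither list held more calls than its size and these shares give. In macrophage-like cells, where 12.4% of all genes were lower and 6.49% higher, 19 of 48 other replication genes were lower and 2 higher (median -0.41), and 42 of 57 other mitosis genes were lower and 3 higher (median -1.12). Those 3 were Ckap2l (12.6 and 40.2 CPM, 1.67), Pttg1 (29.9 and 51.2 CPM, 0.78) and Cks2 (83.8 and 136 CPM, 0.69).

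Of 28 cycle regulators in mesenchymal-like cells, 4 were called lower and 2 higher (median -0.16), where 7.18% of all genes were lower and 11.6% higher; the 2 higher are below that share. The repressors E2f7 (7.21 and 2.66 CPM, -1.44) and E2f8 (-1.03) and the checkpoint kinase Chek1 (-0.86) were lowest. Highest were Ccnd1 (18.8 and 57.6 CPM, 1.62) and Ccnd2 (107 and 187 CPM, 0.80), D-type cyclins that act in G1, followed by the retinoblastoma gene Rb1 (0.45). The D-type cyclin Ccnd3, also on the list, had a lower ratio than Rb1. Ccnd2 was also called higher in keratinocyte-like (70.8 and 232 CPM), endothelial-like (36.6 and 153 CPM) and macrophage-like cells (4.97 and 15.3 CPM).

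Of the 7 CDK inhibitors in mesenchymal-like cells, 4 were called lower and 1 higher (median -0.69). By the same rule 7.18% of all measured genes were lower and 11.6% higher, so the 1 call higher is near that share. Cdkn1a, which encodes p21, a p53 target that stops the cycle, stood at 36.8 and 342 CPM (3.21, 3.14 to 3.29). Cdkn1c (88.5 and 38.4 CPM, -1.20), Cdkn2b (-0.98), Cdkn2a (-0.95) and Cdkn2c (-0.69) were lower. Split by mitosis transcripts, 40.0% (35.7 to 44.4) of irradiated mesenchymal-like cells with 0 mitosis UMIs had a Cdkn1a UMI among 2000, against 17.4% (7.82 to 31.4) of those with at least 2. In the control the 2 shares were 6.54% and 6.23%. In keratinocyte-like cells they were 38.6% and 26.6% in the irradiated and 20.1% and 16% in the control library, and in endothelial-like cells 67.4% and 47.6% (10 of 21 cells) in the irradiated and 20% and 13.2% in the control library. In macrophage-like cells they were 64.8% (62.7 to 66.9) and 58.7% (46.7 to 69.9) in the irradiated library, with overlapping intervals, and 49.5% and 40.9% in the control. The order was the opposite in irradiated dendritic-like (53.6% and 61.5%, on 13 positive cells) and neutrophil-like cells (67.0% and 85.7%, on 7 positive cells), where the intervals overlapped. Control neutrophil-like cells gave 56.9% and 43.8%. Many of the mitosis-positive macrophage-like and dendritic-like cells in this split passed the threshold only through Cenpa.

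Across the 24 combinations of class and library, Lig1, the ligase that joins Okazaki fragments, was the non-member most like the summed replication level (Pearson r of 0.97 on log2(CPM + 1)), and those after it included Dnmt1, Xpo1, Nasp, Ppat, Dbf4, Brca1, Haus4 and Ncapd2. Cdca8, a subunit of the chromosomal passenger complex with Aurkb and Birc5, was most like the summed mitosis level (r of 0.97), and those after it included Knl1, Diaph3, Cdca3, Melk, Tk1, Ska1, Aspm and Pbk. Of the members, Mcm6 (0.97) and Mcm5 (0.96) followed the replication sum most closely and Cdt1 (0.47) least, and Birc5 (0.98) followed the mitosis sum most closely and Kif23 (0.56) least. The sums of the 2 groups had an r of 0.79. These points share libraries and depth, members are part of their own sum, and the values are descriptions only.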

How the data were processed

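Gene-by-cell tables of UMI counts, as deposited by the authors for 1 control and 1 irradiated library, were used; per the submitters' processing notes they came from Cell Ranger 5 and mm10. Members were matched by symbol in the deposited feature names. Barcodes with at least 500 genes, 1000 UMIs and at most 10% mitochondrial UMIs were kept (9240 and 7190; 14.9% and 6.13% of barcodes were above the mitochondrial limit). Doublets were scored with Scrublet in scanpy 1.11.5 and left out above a score of 0.25 in both libraries (515 and 156), since the automatic thresholds were unequal (0.237 and 0.359). Cells were clustered together (2000 variable genes without any listed cycle gene, 30 components, 15 neighbours, Leiden resolution 1, leidenalg 0.10.2). A cluster was named where at least 3 markers reached 50 CPM and 2-fold over the median cluster, the mean log2 score was at least 2 and no other lineage passed 0.75 of it (a cluster with none of its markers among its 10 leading genes was also left unnamed if its depth was low or no more than 0.5 of its markers were detected); this rule was set after the clusters were seen, and 4 of 38 clusters stayed unnamed. Counts were summed per class and library. Ratios of counts have exact conditional intervals, levels Poisson and shares Clopper-Pearson intervals at 95% (scipy 1.17.1). A gene was called by size: at least 1.5-fold, an interval that leaves out equality, and 20 UMIs over both libraries. Shares used cells thinned to 2000 UMIs, leaving out shallower cells (49 and 17 mesenchymal-like, 372 and 166 neutrophil-like). The ratio and thinning scripts were tested on simulated data. Genes named were 14 fixed members, the 3 highest and 3 lowest of each group in 4 classes, the extremes of each pathway list in mesenchymal-like cells and the 10 genes most like each sum (of which some are not reported here); T and NK-like genes and clusters named beyond these, and the genes named from pathway lists in other classes, were chosen after their values were seen. The members and lists were chosen with earlier results of these data known.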

Additional observations from a re-analysis of the deposited data

How the results depend on the processing

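No paired analysis was possible because each group had 1 library. Of 192 values recomputed under 16 planned and 5 added alternatives (the added ones chosen after seeing the data), 124 stayed within the interval of the reported value or within 1.5 times a count, and the cause of the other changes was not tested; log2 ratios are given in the order mesenchymal-, keratinocyte-, endothelial- and macrophage-like where all 4 are printed. Leaving out Ccne1 and Ccne2 moved no summed ratio beyond its interval, nor did thinning to a larger number of UMIs or a threshold of 1 UMI for any share. Thinning every cell to 2000 UMIs, which weights cells alike, gave mitosis ratios of -0.93, -0.68, -0.81 and -0.83, replication ratios of -0.55, -0.36, 0.20 and -0.055, and differences between the groups of 0.38, 0.32 and 1.01 in the first 3 classes. Weighting clusters alike gave mitosis ratios of -0.30, -0.38, -0.0072 and -0.74, replication ratios of -0.28 (mesenchymal), -0.15 (keratinocyte) and -0.12 (macrophage), and differences of 0.014 (mesenchymal), 0.046 (endothelial) and 0.62 (macrophage). Without the most abundant member of each group the replication ratios were -0.51, -0.25, -0.036 and -0.42 and the differences 0.011, 0.21, 0.14 and 0.61. In endothelial-like cells the mitosis ratio and the difference were -0.30 and 0.36 with automatic doublet thresholds and -0.26 and 0.34 with no doublets left out; at resolution 0.5 the mitosis ratio was -0.33 and the replication ratio -0.021. Leaving out cluster 26 turned the endothelial mitosis ratio to 0.076, with a replication ratio of 0.18 and a difference of 0.11. In macrophage-like cells the replication and mitosis ratios were -0.11 and -0.80 with no doublets left out (difference 0.69), -0.063 and -0.82 under the stricter cell filter, -0.0059 and -0.58 with cycle genes kept for clustering (difference 0.57), and -0.11 and -0.90 after scaling to the median gene. Their mitosis ratio was -0.94 after neutrophil-like UMIs were subtracted and -0.88 without cluster 1 (difference 0.70). In keratinocyte-like cells the stricter filter gave a replication ratio of -0.26 and a difference of 0.19, and leaving out cluster 10 a mitosis ratio of -0.39 and a difference of 0.18. Leaving out cluster 7 gave mesenchymal replication and mitosis ratios of -0.31 and -0.37. For shares, without thinning the keratinocyte replication ratio turned to 0.063, the keratinocyte mitosis ratio was -0.35, the mesenchymal replication ratio -0.22 and the macrophage mitosis ratio -0.35; with at least 3 UMIs the replication ratio of shares was -0.59 in both keratinocyte- and macrophage-like cells. At 2-fold, members called lower were 1 replication and 0 mitosis genes in mesenchymal-like, 0 mitosis genes in keratinocyte- and in endothelial-like, and 3 replication genes in macrophage-like cells. Few cells limit the small classes: the 18 irradiated sebocyte-like cells held 26 mitosis UMIs.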
